A study of Mus musculus with 28 samples.

Results

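The interleukin-1 family and the inflammasome were followed through 9 genes in cultured mouse microglia: the ligands Il1a, Il1b and Il18, the receptor antagonist Il1rn, the sensor Nlrp3, the adaptor Pycard, the caspases Casp1 and Casp4, and the pore protein Gsdmd. They were taken by gene symbol from the deposited count tables, 9 of 54427 genes, and all 9 were found. Interleukin-1 cytokines are early inflammatory signals of the innate immune system, and in the brain microglia are a main source of them. Pro-forms of IL-1β and IL-18 are made in the cytosol and become active when an inflammasome, built from a sensor such as NLRP3 and the adaptor ASC, switches on caspase-1, whereas caspase-11 senses bacterial lipopolysaccharide inside the cell. Both caspases cut gasdermin D, whose fragment forms pores in the plasma membrane, and the antagonist IL-1Ra occupies the IL-1 receptor without starting a signal. Transcript levels do not show whether a cytokine was processed or released.

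The study profiled primary microglia of APOE3 mice (labelled WT) and of APOE3S/S mice (labelled Christchurch, after a variant of apolipoprotein E), either untreated (labelled Control) or given tau or amyloid. In all there were 28 libraries of QuantSeq 3′ tags: for APOE3 6 from untreated cells, 6 with tau and 3 with amyloid, and for APOE3S/S 4, 6 and 3. Both genotypes are named as forms of APOE3, so no group lacks it, and 3′ tags give no check of the genotype label. The sources used here do not give the age and sex of the mice, how many animals lay behind a culture, or the form, dose and duration of tau and amyloid. Nor do the labels say that replicates came from separate cultures or animals, and each p-value therefore reflects only the spread of these libraries, possibly a technical one.

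Library titles followed 2 naming series, one whose titles end in SAN (17 libraries, all treatments) and a second one (11 libraries, untreated and tau). Libraries are numbered here within their group: APOE3 untreated libraries 1 to 3 and tau libraries 4 to 6, APOE3S/S untreated libraries 1 and 2 and tau libraries 4 to 6, and every amyloid library belonged to the SAN series. Totals ran from 14.5 to 27.2 M counts (M for 1000000), and 17302 to 20023 genes were detected per library. Microglial markers were present, with 12 of them summing to 3800 to 5015 counts per 1000000 counts of a library (CPM), with Csf1r and Trem2 among the highest, although Siglech had 8 counts in all and was at 0 in 24 libraries. Of 12 neutrophil markers, S100a9, Mpo and Retnlg were at 0 in all 28 libraries, and the summed level of 206 to 425 CPM came mostly from Csf3r and Mmp8. Lymphocyte markers summed to at most 0.899 CPM.

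With tau, 7 of the 9 genes rose in APOE3 microglia, Il1b, Il1rn and Il1a most. The call was an adjusted p under 0.05 in edgeR's quasi-likelihood test, with a term for title series, and 8.98% of all 13905 genes tested passed it upward. Il1b rose 6.59-fold, Il1rn 2.90-fold, Il1a 2.29-fold, Casp4 2.10-fold, Il18 1.96-fold, Gsdmd 1.72-fold and Nlrp3 1.65-fold. Pycard and Casp1 did not pass. The median log2 fold change of the 9 genes was 0.97, against -0.02 over all genes tested.

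**Figure D1:**
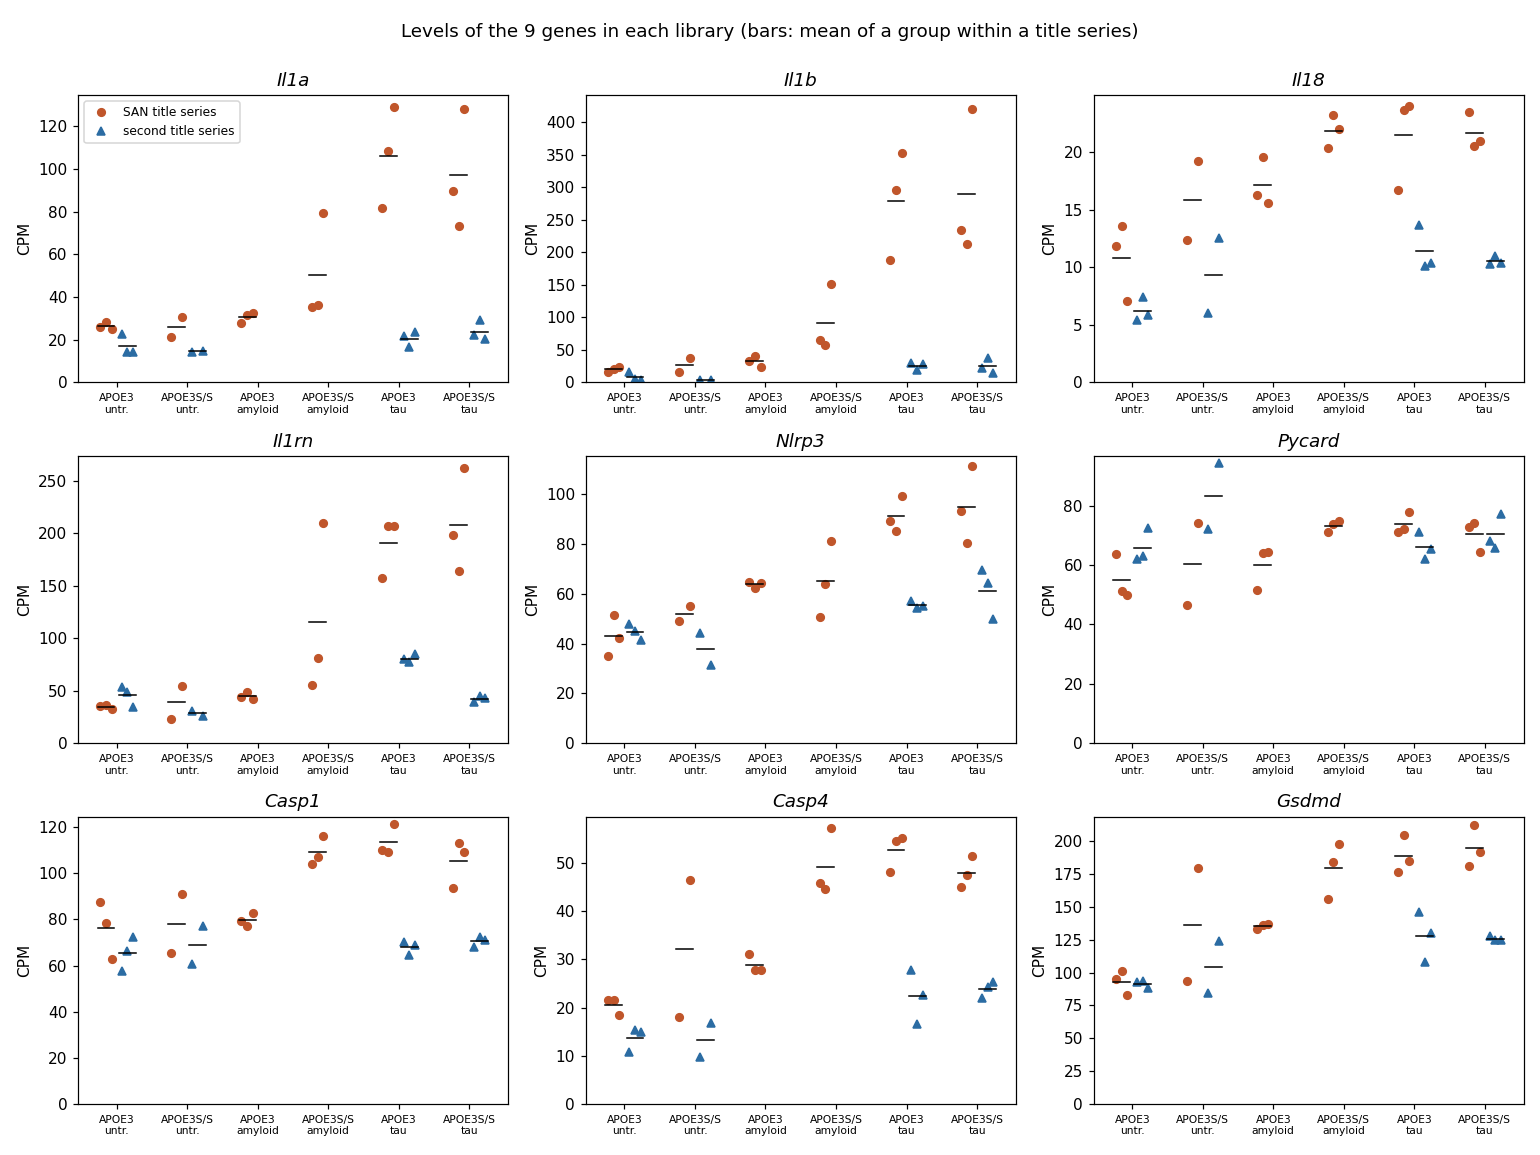
Level of each of the 9 genes in CPM (vertical axis, linear and starting at 0) in every library, by genotype and treatment, with circles for the SAN title series, triangles for the second title series and bars for the mean of a group within a series. The 3 SAN tau libraries of each genotype hold the highest Il1b levels, 188 to 353 CPM in APOE3 and 213 to 421 CPM in APOE3S/S, while Pycard changes little between groups.

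Il1b, which encodes the secreted cytokine IL-1β (chr2:129364570-129371139, minus strand), stood at 16.4, 21.3 and 23.4 CPM in the untreated SAN libraries of APOE3 and at 188, 297 and 353 CPM in the tau libraries of that series. The second series gave 15.4, 5.28 and 3.82 CPM untreated and 30.2, 19.1 and 28.1 CPM with tau. Every tau library was above every untreated library of its own series, but the second-series tau library at 19.1 CPM lay below 2 untreated SAN libraries. How many of all genes were separated in that way was not counted, here and in the other comparisons of tau with untreated libraries. The log2 fold change over both series was 2.72 ± 0.43 (standard error, as for every log2 value after ±; adjusted p = 0.000295), the 76th highest of all genes tested.

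Il1a encodes IL-1α (chr2:129299610-129309972, minus strand), which acts on the same receptor and needs no inflammasome to be active. Untreated APOE3 libraries of the SAN series had 25.9, 28.2 and 25.0 CPM and tau libraries 81.5, 108 and 129 CPM. Levels in the second series were 22.7, 14.3 and 14.3 CPM untreated and 21.7, 16.4 and 23.6 CPM with tau. The groups were far apart in the SAN series and overlapped in the second, and the log2 fold change over both was 1.20 ± 0.28 (adjusted p = 0.00549).

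Il18 encodes the cytokine IL-18, which drives interferon-γ production in lymphocytes (chr9:50554827-50581840, plus strand). It was the ligand with the lowest counts, at 11.8, 13.6 and 7.11 CPM untreated and 16.8, 23.7 and 24.1 CPM with tau in the SAN series of APOE3. The second series gave 5.44, 7.47 and 5.82 CPM untreated and 13.7, 10.1 and 10.4 CPM with tau. Tau libraries were above untreated ones within each series, and the log2 fold change was 0.97 ± 0.18 (adjusted p = 0.00108). Il18 shares 355 bases with Bco2 on the opposite strand, which had 2529 counts in all libraries against 7620 for Il18, and it also overlaps Tex12. The sources used here do not give whether counting used the strand, so part of either gene's counts may belong to the other.

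Il1rn, the gene of the antagonist IL-1Ra (chr2:24336853-24351494, plus strand), rose beside the ligands. Its levels were 35.6, 36.6 and 32.4 CPM untreated and 158, 207 and 207 CPM with tau in the SAN series of APOE3. The second-series libraries had 53.9, 48.4 and 34.7 CPM untreated and 79.9, 77.3 and 84.8 CPM with tau. All 6 tau libraries lay above all 6 untreated libraries (log2 fold change 1.53 ± 0.35, adjusted p = 0.00448).

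Ligand and antagonist did not keep a constant proportion. The ratio of Il1b to Il1rn counts was 0.460 to 0.724 in untreated APOE3 libraries of the SAN series and 1.19 to 1.70 with tau, so that Il1b exceeded Il1rn in counts in all 3 tau libraries there. In the second series the ratio was 0.109 to 0.286 untreated and 0.248 to 0.378 with tau, with Il1rn ahead in every library. APOE3S/S libraries of the SAN series had ratios of 0.681 to 0.712 untreated and 1.18 to 1.61 with tau, and those of the second series 0.140 to 0.161 and 0.342 to 0.858. Amyloid libraries, all of the SAN series, had 0.555 to 0.842 in APOE3 and 0.713 to 1.20 in APOE3S/S. These are ratios of 3′ tag counts, described without a test, and say nothing of the 2 proteins' amounts.

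**Figure D2:**
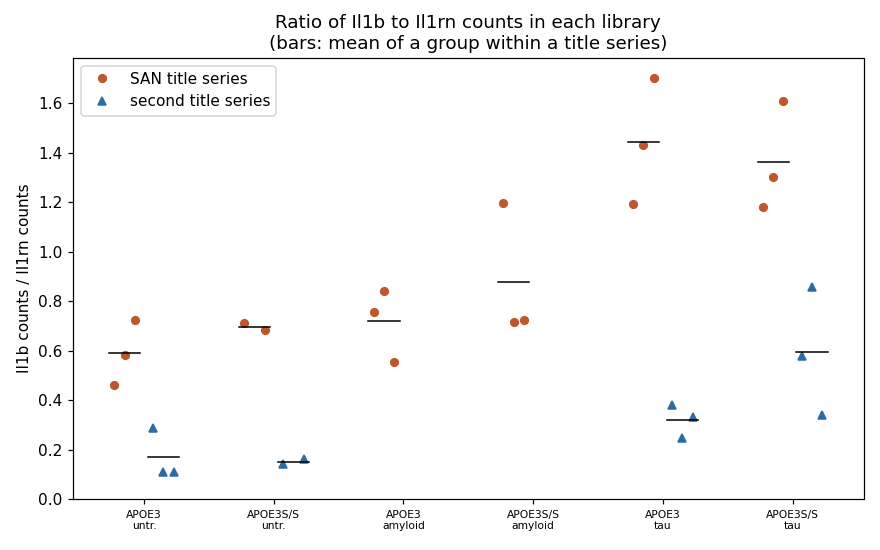
Ratio of Il1b to Il1rn counts (vertical axis, linear and starting at 0) in every library, by genotype and treatment, with circles for the SAN title series, triangles for the second title series and bars for the mean of a group within a series. All 6 tau libraries of the SAN series lie above 1, and all libraries of the second series lie below 1.

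Among the inflammasome parts, Nlrp3 rose and its adaptor did not pass the test. Nlrp3, the sensor of potassium efflux and membrane damage (chr11:59541568-59566956, plus strand), stood at 35.1, 51.3 and 42.3 CPM untreated and 89.2, 85.2 and 99.2 CPM with tau in the SAN series of APOE3. In the second series it stood at 47.7, 45.1 and 41.6 CPM untreated and at 57.2, 54.1 and 55.1 CPM with tau. The groups did not overlap in either series or over both (log2 fold change 0.72 ± 0.14, adjusted p = 0.00134). Pycard, which encodes the adaptor ASC (chr7:127989708-127993867, minus strand), had 50.0 to 72.6 CPM in untreated and 62.0 to 77.7 CPM in tau libraries, and its log2 fold change was 0.26 ± 0.13 (adjusted p = 0.223).

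The caspases differed. Casp4, the mouse symbol for caspase-11 (chr9:5308828-5336783, plus strand), had 21.5, 21.6 and 18.6 CPM untreated and 48.1, 54.7 and 55.2 CPM with tau in the SAN series of APOE3. Levels of Casp4 in the second series were 10.9, 15.4 and 14.9 CPM untreated and 27.8, 16.6 and 22.7 CPM with tau. Tau libraries were higher than untreated ones within each series (log2 fold change 1.07 ± 0.20, adjusted p = 0.00102). Casp1, the caspase that processes the pro-cytokines and neighbour of Casp4 (chr9:5298517-5307265, plus strand), had 62.8 to 87.3 CPM untreated and 109 to 121 CPM with tau in the SAN series. Its second-series ranges of 57.7 to 72.1 CPM and 64.7 to 70.0 CPM overlapped, and the log2 fold change over both series was 0.36 ± 0.13 (adjusted p = 0.0687). DESeq2, applied to the same 22 libraries, placed Casp1 past the threshold (adjusted p = 0.0440).

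Gsdmd (chr15:75862327-75867408, plus strand) encodes the pore protein that both caspases cut. Untreated APOE3 libraries had 95.2, 101 and 82.6 CPM in the SAN series and 93.0, 93.5 and 88.6 CPM in the second. Tau libraries had 176, 205 and 185 CPM and 146, 108 and 130 CPM, above every untreated library (log2 fold change 0.78 ± 0.15, adjusted p = 0.00136). In bulk RNA, fewer cells of a type and less RNA per cell cannot be told apart, here and in each comparison below.

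The members were searched for sequence motifs in the 250 bases before their RefSeq starts (build GRCm38.p6), where 12 start sites of 8 members were matched. The motif set held kB (GGGNNNTTCC), AP-1 (TGANTCA), ISRE (GAAANNGAAA), GAS (TTCNNNGAA), C/EBP (TTNNGCAA), the letters of the TATA box (TATAAA) and PU.1 (GAGGAA), each read on both strands. A kB match stood before Casp4, 3 times, and before 1 of 3 starts of Il1rn, and 4.65% of 32851 promoter windows of that length held one. An AP-1 match stood before Il1a and before another start of Il1rn, against 6.75% of all windows, and TATAAA before Il1a, Il1b and Il18, against 12.4%. The match of Il18 begins at position -175 and reads on the opposite strand, far from where such a box works. C/EBP stood before Pycard (9.56% of all windows) and PU.1 before Il1a, Nlrp3, Pycard and Casp1 (23.3%), whereas ISRE (2.98%) and GAS (7.02%) had no match. Below is 1 window for each of the 4 members with the highest fold changes, 5′ to 3′ in the direction of the gene, with capitals for matches to kB, AP-1 and TATAAA. Of the 3 windows of Il1rn the one with the kB match was picked, and not those with the AP-1 match or with none, and of the 2 overlapping windows of Casp4 the one that begins further upstream. They are Casp4 chr9:5308599-5308848 (plus strand), Il1rn chr2:24345121-24345370 (plus), Il1a chr2:129309973-129310222 (minus) and Il1b chr2:129371140-129371389 (minus).
Casp4: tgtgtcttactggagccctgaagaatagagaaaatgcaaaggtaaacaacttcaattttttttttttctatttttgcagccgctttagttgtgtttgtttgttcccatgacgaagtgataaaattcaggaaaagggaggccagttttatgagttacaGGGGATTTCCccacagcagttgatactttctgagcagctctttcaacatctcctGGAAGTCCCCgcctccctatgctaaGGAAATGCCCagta
Il1rn: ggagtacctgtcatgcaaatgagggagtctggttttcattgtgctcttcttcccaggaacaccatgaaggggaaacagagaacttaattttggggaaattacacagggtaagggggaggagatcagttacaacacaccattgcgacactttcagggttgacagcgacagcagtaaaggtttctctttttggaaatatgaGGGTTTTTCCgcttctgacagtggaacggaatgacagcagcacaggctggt
Il1a: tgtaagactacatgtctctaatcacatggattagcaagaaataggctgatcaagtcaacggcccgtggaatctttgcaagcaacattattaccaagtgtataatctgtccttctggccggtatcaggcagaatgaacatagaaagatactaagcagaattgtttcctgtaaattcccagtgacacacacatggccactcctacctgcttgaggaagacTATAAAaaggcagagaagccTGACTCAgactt
Il1b: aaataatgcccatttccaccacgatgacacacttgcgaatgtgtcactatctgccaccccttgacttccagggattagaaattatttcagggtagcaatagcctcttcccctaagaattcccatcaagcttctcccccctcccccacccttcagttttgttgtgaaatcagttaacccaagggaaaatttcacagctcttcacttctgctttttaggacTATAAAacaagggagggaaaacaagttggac
In the Casp4 window the 3 capital runs begin at positions -93, -39 and -14 relative to the start, the first reading along the gene and the others on the opposite strand. The Il1rn run begins at position -51, and the Il1a and Il1b windows carry TATAAA at -32 and -31, with AP-1 in Il1a at -12. A match is a description of letters and not a bound site, and no match says only that these letters are not in this window.

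The tau effect of 4 members was larger in the SAN series than in the second one in APOE3 cells. The difference between series, tested in a fit with a term for each group within each series, passed upward for Il1a, Il1b, Il1rn and Nlrp3, 4 of 9 against 2.93% of all genes tested. Il1a changed by 2.08 ± 0.23 on the log2 scale in the SAN series and by 0.29 ± 0.23 in the second (difference 1.79 ± 0.33, adjusted p = 0.00320). Il1rn changed by 2.52 ± 0.24 and 0.83 ± 0.23 (difference 1.69 ± 0.33, adjusted p = 0.00468), and Nlrp3 by 1.16 ± 0.15 and 0.32 ± 0.15 (difference 0.84 ± 0.21, adjusted p = 0.0218). Il1b changed by 3.86 ± 0.46 and 1.69 ± 0.44 (difference 2.17 ± 0.61, adjusted p = 0.0418). Differences that did not pass were 0.70 ± 0.38 for Casp4 (adjusted p = 0.345) and 0.59 ± 0.27 for Gsdmd (adjusted p = 0.238). Those of Casp1 (0.57 ± 0.22, adjusted p = 0.137) and Pycard (0.46 ± 0.23, adjusted p = 0.288) did not pass either, and Il18 is given below.

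Within the SAN series all 9 genes passed in APOE3 in that fit, Pycard (0.48 ± 0.16, adjusted p = 0.0396) and Casp1 (0.64 ± 0.15, adjusted p = 0.00429) included, where 12.8% of all genes passed upward. Within the second series none did in that fit (0.431% of all genes), the smallest adjusted p being that of Il1b (0.0791). In fits of 1 series alone, the SAN libraries gave 8 members, all but Pycard (11.7% of all genes upward). The second-series libraries alone gave 2 (1.91% of all genes upward), Il1b (1.69, adjusted p = 0.0499) and Il1rn (0.83, adjusted p = 0.00721). For Il18 the 2 series gave 1.05 ± 0.26 and 0.88 ± 0.27, and their difference did not pass (adjusted p = 0.877). Series differ in more than their titles: 12 border macrophage and monocyte markers summed to 1690 to 2029 CPM in untreated APOE3 libraries of the SAN series and to 2793 to 3199 CPM in the second, and their part in these results was not tested. The Il1b difference between series did not pass without any 1 of APOE3 untreated libraries 1 to 4 or tau libraries 1, 2, 3, 5 or 6 (1.36 to 2.31 on the log2 scale). That of Nlrp3 did not pass without untreated library 1 or 4 or tau library 2 or 6 (0.73 to 0.81), which left 2 members called without each of those 4 libraries. Over all genes, 428 were called in either direction without tau library 2 and 425 without tau library 6.

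**Figure D3:**
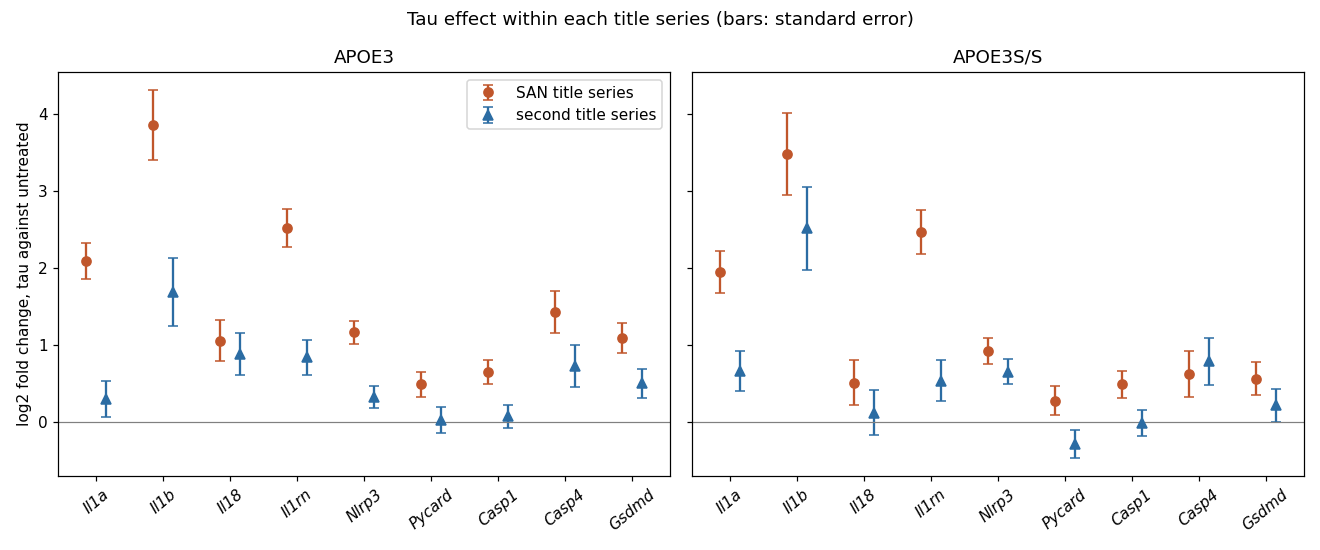
Log2 fold change of tau against untreated (vertical axis) for each of the 9 genes within the SAN series (circles) and the second series (triangles), with bars for the standard error, in APOE3 on the left and APOE3S/S on the right. In APOE3 every gene has its larger value in the SAN series, and in APOE3S/S every gene but Casp4 has.

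Tau also raised Il1b, Il1rn, Il1a and Nlrp3 in APOE3S/S microglia, 4 of 9 against 2.14% of all genes upward. Il1b rose 8.37-fold, Il1rn 3.11-fold, Il1a 2.45-fold and Nlrp3 1.73-fold. Il18, Pycard, Casp1, Casp4 and Gsdmd did not pass, while DESeq2 called Casp4 too (adjusted p = 0.0320), 5 of 9 against 4.29% of all genes upward. The median log2 fold change of the 9 genes was 0.70, against -0.01 over all genes.

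In APOE3S/S, Il1b stood at 16.4 and 37.3 CPM in the untreated and at 234, 213 and 421 CPM in the tau libraries of the SAN series. In the second series it stood at 4.31 and 4.21 CPM untreated and at 22.8, 38.4 and 14.7 CPM with tau. Within each series the tau libraries were higher, over both series they overlapped, and the log2 fold change was 3.06 ± 0.50 (adjusted p = 0.00503). This call held without any 1 of the 10 libraries (log2 fold changes of 2.79 to 3.30, adjusted p of 0.00230 to 0.0267).

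Il1rn in APOE3S/S had 23.0 and 54.7 CPM untreated and 199, 164 and 262 CPM with tau in the SAN series, and 30.7 and 26.2 CPM against 39.3, 44.7 and 43.1 CPM in the second. Il1a had 21.4 and 30.8 CPM untreated and 89.9, 73.3 and 128 CPM with tau in the SAN series, and 14.5 and 14.8 CPM against 22.1, 29.2 and 20.2 CPM in the second. Nlrp3 had 49.0 and 55.1 CPM untreated and 93.1, 80.3 and 111 CPM with tau in the SAN series, and 44.1 and 31.6 CPM against 69.5, 64.5 and 49.8 CPM in the second. For all 3 genes the tau libraries were above the untreated ones within each series, a separation of few libraries that was not counted over all genes. Log2 fold changes were 1.64 ± 0.41 for Il1rn (adjusted p = 0.0348), 1.29 ± 0.32 for Il1a (adjusted p = 0.0340) and 0.79 ± 0.16 for Nlrp3 (adjusted p = 0.0134).

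Those 3 calls rested on few libraries. Without APOE3S/S untreated library 1, only Il1b was called, with Il1a at 1.07 (adjusted p = 0.123), Il1rn at 1.35 (adjusted p = 0.123) and Nlrp3 at 0.74 (adjusted p = 0.0672). Without tau library 4 or tau library 6, Il1b and Nlrp3 were called, as they were in the second series alone (1.65% of all genes upward). Over all genes, 34 were called without untreated library 1, 134 without tau library 4 and 91 without tau library 6. Il1a also missed the threshold without untreated library 2 or tau library 2, and Il1rn without untreated library 3 or 4. Without the title-series term no member was called in APOE3S/S (Il1b 3.39, adjusted p = 0.228), and 5 were called in APOE3. The share of all genes called in that fit is not given here, so neither count is set against it.

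Untreated APOE3S/S library 2 stood apart from library 1 of the same series in called members as well as in the others. Beside the higher Il1b and Il1rn levels given above it had 46.5 CPM of Casp4 against 18.0 CPM, 179 CPM of Gsdmd against 93.7 CPM and 19.3 CPM of Il18 against 12.4 CPM. With it, Casp4 differed between tau and untreated by 0.70 ± 0.22 on the log2 scale (adjusted p = 0.0854), and without it by 1.04 (adjusted p = 0.00633). Gsdmd differed by 0.39 ± 0.17 (adjusted p = 0.206) and Il18 by 0.31 ± 0.20 (adjusted p = 0.412). Casp1, at 0.22 ± 0.15, and Pycard, at -0.02 ± 0.15, had adjusted p of 0.415 and 0.955.

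In APOE3S/S the tau effect differed between series past the threshold for Il1rn (2.47 ± 0.28 in the SAN and 0.53 ± 0.26 in the second series, difference 1.94 ± 0.37, adjusted p = 0.0151), 1 of 9 against 0.539% of all genes. That call did not hold without untreated library 1 (difference 1.41), untreated library 4 (2.01) or tau library 6 (1.73), when 0 members were called, whereas Il1a, Il1rn, Pycard and Gsdmd, 4 members, were called without untreated library 2 (2.41% of all genes upward) and Il1a and Il1rn without untreated library 3 (4.60%). DESeq2 placed Il1a past the threshold too (1.29, adjusted p = 0.0248). Il1b changed by 3.48 ± 0.53 in the SAN and 2.51 ± 0.54 in the second series.

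No member differed between genotypes past the threshold under any treatment in the main edgeR fits or in DESeq2. Some fits of fewer libraries or without the low-count filter did call members, as given below. With tau, 0 of 9 were called in edgeR or DESeq2, 0.0144% of all genes passed in edgeR, and no member had an unadjusted p under 0.05. The log2 differences, APOE3S/S minus APOE3, ran from -0.26 to 0.09, with a median of -0.01. Il1b showed 14.7 to 421 CPM in APOE3S/S and 19.1 to 353 CPM in APOE3 tau libraries, overlapping in both series. In the second series by itself Il1rn was lower in APOE3S/S tau libraries (39.3, 44.7 and 43.1 CPM) than in APOE3 ones (79.9, 77.3 and 84.8 CPM), with a log2 difference of -0.95 (adjusted p = 0.0102), while the SAN series gave 0.12. Untreated libraries of the second series were separated in the same direction, at 30.7 and 26.2 CPM in APOE3S/S against 53.9, 48.4 and 34.7 CPM in APOE3. The difference of the tau effect between genotypes was called for 0 of 9 in both tools (0% of all genes in edgeR). It had an unadjusted p under 0.05 for Il18, whose tau effect was smaller in APOE3S/S by 0.65 on the log2 scale (-0.65 ± 0.27, adjusted p = 1.00).

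Untreated libraries gave 0 of 9 calls between genotypes in edgeR and in DESeq2, with 0.00719% of all genes passing in edgeR. Unadjusted p was under 0.05 for Il18 (0.59 ± 0.20, adjusted p = 0.642) and Gsdmd (0.39 ± 0.17, adjusted p = 0.642). Il18 had 12.4 and 19.3 CPM in the untreated APOE3S/S libraries of the SAN series and 6.07 and 12.6 CPM in those of the second, overlapping with APOE3 in each. Gsdmd had 84.7 to 179 CPM in APOE3S/S and 82.6 to 101 CPM in APOE3.

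Amyloid libraries, all of the SAN series, were compared with untreated libraries of that series. In neither genotype was a member called by edgeR or DESeq2, and 0% of 13867 genes passed in edgeR in each. Without the low-count filter edgeR called 5 in APOE3, Il1b, Il18, Nlrp3, Casp4 and Gsdmd (2.95% of 25682 genes upward). It then called 5 in APOE3S/S, Il1a, Il1b, Il1rn, Casp1 and Casp4 (1.78% upward). All 9 log2 fold changes were above 0 in both genotypes, with medians of 0.48 in APOE3 and 0.52 in APOE3S/S, where the medians over all genes were within 0.01 of 0. In APOE3, 3 members had an unadjusted p under 0.05: Nlrp3 (0.57 ± 0.17, adjusted p = 0.226), Il18 (0.65 ± 0.24, adjusted p = 0.292) and Gsdmd (0.53 ± 0.21, adjusted p = 0.318).

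Nlrp3 had 64.6, 62.4 and 64.4 CPM in APOE3 amyloid libraries, above the untreated 35.1 to 51.3 CPM. Gsdmd had 133, 137 and 137 CPM, above 82.6 to 101 CPM, and Il18 16.3, 19.6 and 15.6 CPM, above 7.11 to 13.6 CPM. There was no overlap for 5 of the 9 genes, with Il1rn and Casp4 beside these 3, and 13.4% of all genes tested were separated upward in the same way. Il1b overlapped, at 33.1, 40.9 and 23.4 CPM against 16.4 to 23.4 CPM. A fit of the 2 compared groups alone placed Nlrp3 and Gsdmd past the threshold in APOE3 (adjusted p of 0.0429 and 0.0319), with 3.63% of all genes upward.

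In APOE3S/S the amyloid libraries had 66.0, 58.1 and 152 CPM of Il1b, above the untreated 16.4 and 37.3 CPM (log2 fold change 1.81 ± 0.46, adjusted p = 0.582). Il1rn had 55.2, 81.4 and 210 CPM against 23.0 and 54.7 CPM (1.60 ± 0.50, adjusted p = 0.582). Il1a had 35.5, 36.3 and 79.4 CPM against 21.4 and 30.8 CPM (0.99 ± 0.31, adjusted p = 0.582). Casp1 had 104, 107 and 116 CPM against 65.5 and 90.8 CPM (0.52 ± 0.18, adjusted p = 0.582). For these 4 genes and Il18 the amyloid libraries lay above the untreated ones of the series, as for 6.97% of all genes tested, with amyloid library 3 well above the other two for Il1a, Il1b and Il1rn. Without untreated library 2, described above, 4 members were called, where 2.41% of all genes passed upward: Casp4 (1.55, adjusted p = 0.00219), Gsdmd (1.03, adjusted p = 0.00959), Il1b (2.59, adjusted p = 0.0289) and Casp1 (0.84, adjusted p = 0.0454). A single untreated library then stood for the group and was assumed to vary like the others.

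With amyloid, 8 of the 9 genes were higher in each APOE3S/S library than in each APOE3 library, Nlrp3 being the one that overlapped, and 8.42% of all genes tested were separated that way. None of the 9 was called in edgeR or DESeq2 (0% of all genes in edgeR), whereas without the low-count filter 6 were, Il1a, Il1b, Il1rn, Casp1, Casp4 and Gsdmd (1.82% of all genes upward). Unadjusted p was under 0.05 for 6 of them. Il1b differed by 1.59 ± 0.39 on the log2 scale (adjusted p = 0.358), Il1rn by 1.45 ± 0.43 (adjusted p = 0.380) and Il1a by 0.81 ± 0.27 (adjusted p = 0.389). Casp4, at 45.8, 44.7 and 57.2 CPM in APOE3S/S against 31.0, 27.7 and 27.8 CPM in APOE3, differed by 0.86 ± 0.27 (adjusted p = 0.383). Casp1 differed by 0.54 ± 0.16 (adjusted p = 0.380), with 79.2, 77.1 and 82.9 CPM in APOE3, and Gsdmd by 0.49 ± 0.21 (adjusted p = 0.400). In a fit of the 6 amyloid libraries alone Casp1, Casp4 and Gsdmd passed (adjusted p of 0.0203, 0.0202 and 0.0402), where 1.79% of all genes did so upward. The difference of the amyloid effect between genotypes was called for 0 of 9 in both tools (0% of all genes in edgeR), with no unadjusted p under 0.05 and log2 values from -0.20 to 1.25.

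**Figure D4:**
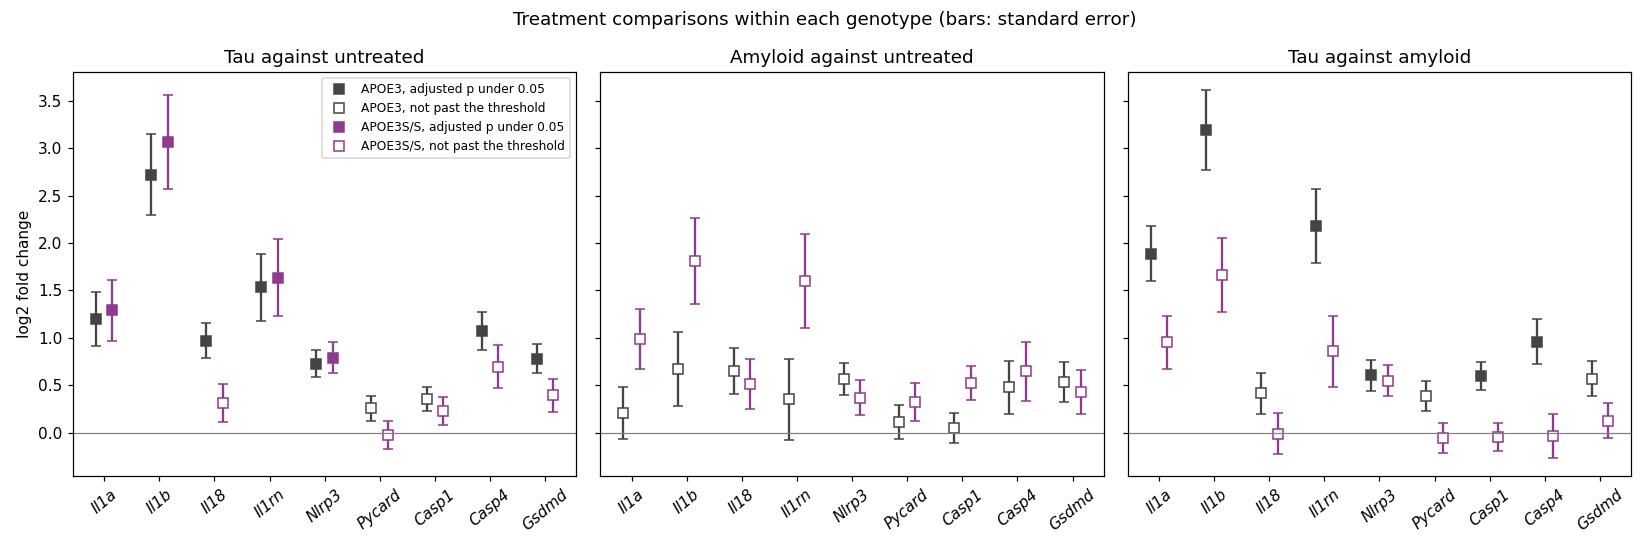
Log2 fold change (vertical axis) of the 9 genes for tau against untreated, amyloid against untreated and tau against amyloid, in APOE3 (grey) and APOE3S/S (purple), with bars for the standard error and filled squares for an adjusted p under 0.05. Tau against untreated has 7 filled squares in APOE3 and 4 in APOE3S/S, amyloid against untreated has none, and tau against amyloid has 6 in APOE3 and none in APOE3S/S.

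Set against amyloid within the SAN series, tau libraries of APOE3 had higher levels of 6 members, against 4.13% of 14131 genes upward. Il1b was 9.16-fold higher (3.20 ± 0.42 on the log2 scale, adjusted p = 0.00287), Il1rn 4.53-fold (2.18 ± 0.39, adjusted p = 0.00849) and Il1a 3.70-fold (1.89 ± 0.29, adjusted p = 0.00444). Casp4 was 1.94-fold (adjusted p = 0.0270), Nlrp3 1.52-fold (adjusted p = 0.0362) and Casp1 1.51-fold higher (adjusted p = 0.0265). Il18, Pycard and Gsdmd had adjusted p of 0.269, 0.153 and 0.0729, and DESeq2 called Gsdmd as a 7th member (adjusted p = 0.0327, 6.38% of all genes upward). These values share their tau libraries with the tau comparison and their amyloid libraries with the amyloid comparison. Il1a and Il1b held without any 1 of the 6 libraries. Nlrp3 was called in none of the 6 fits that leave out 1 library (lowest adjusted p = 0.0643, without tau library 4). Without APOE3 amyloid library 1, 2 or 3 or tau library 5, Il1a, Il1b and Il1rn were called and the others were not, and without tau library 6 Il1a and Il1b were. Over all genes, 165, 218, 141 and 192 were called without amyloid libraries 1, 2 and 3 and tau library 5, and 58 without tau library 6.

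In APOE3S/S, tau against amyloid gave 0 of 9 calls in edgeR (0.149% of all genes) and 1 in DESeq2, Il1b (adjusted p = 0.0313). Unadjusted p was under 0.05 for Il1b (1.66 ± 0.39, adjusted p = 0.139), Il1a (0.95 ± 0.28, adjusted p = 0.227), Nlrp3 (0.55 ± 0.16, adjusted p = 0.237) and Il1rn (0.86 ± 0.38, adjusted p = 0.486). Amyloid library 3, at 152 CPM of Il1b and 210 CPM of Il1rn, had an Il1rn level inside the tau range of 164 to 262 CPM. Without that library the same 4 genes were called, where 1.63% of all genes passed upward: Il1b 2.22 (adjusted p = 0.00618), Il1rn 1.61 (adjusted p = 0.00925), Il1a 1.43 (adjusted p = 0.00490) and Nlrp3 0.73 (adjusted p = 0.0248). In the fit with every SAN library, amyloid library 3 included, the remaining 5 genes had log2 values from -0.06 to 0.12.

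Other genes of the pathway moved with tau in APOE3 as follows, beside 8.98% of all genes called upward and 5.87% called downward. Of the 6 further IL-1 family cytokines in the tables only Il1f9, the IL-36γ gene, had enough counts to be tested, and it rose (3.17 ± 0.53, adjusted p = 0.000445). Its levels were low, with a mean of 7.35 CPM in SAN tau libraries of APOE3 and 0.627 CPM in the untreated ones, and 0.275 and 0.103 CPM in the second series. Of 7 receptors and decoys tested, Il18bp, the soluble IL-18 trap, rose (0.76 ± 0.20, adjusted p = 0.0101) and Il1rl1, the IL-33 receptor, fell (-1.53 ± 0.39, adjusted p = 0.00960) at levels of at most 2.76 CPM. Of 13 signalling genes, Irak3, an inhibitor of the receptor-proximal kinases, rose (1.11 ± 0.22), as did the adaptor Myd88 (0.56 ± 0.13), while Tollip fell (-0.20 ± 0.07, adjusted p = 0.0492), a call lost without any 1 of untreated libraries 1 to 4 or tau libraries 1 and 3 to 6. With 1 of 7 and 2 of 13 raised, both lists were close to the share of all genes.

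Of 10 genes tested on a list of innate immune sensors beside Nlrp3, 5 rose, Nod2 (1.31 ± 0.18) and Nlrc4 (0.64 ± 0.10) with the smallest p. The call of Naip2 did not hold in every fit that left out 1 library (highest adjusted p = 0.0593). Nod2, a sensor of bacterial muramyl dipeptide, had a mean of 35.0 CPM in SAN tau libraries of APOE3 against 9.88 CPM untreated, and 15.5 against 9.32 CPM in the second series. Of 16 inflammasome regulators, 6 rose, led by the guanylate-binding proteins Gbp5 (2.82 ± 0.44) and Gbp2 (2.34 ± 0.44), followed by Ripk3 (0.45 ± 0.11) and the ATP-gated channel P2rx4 (0.43 ± 0.09). P2rx7 also rose, but not past the threshold in every fit that left out 1 library (highest adjusted p = 0.129). Of 6 lysis genes, 3 rose, among them Mlkl, the necroptosis effector (1.59 ± 0.28), and Ninj1, which ruptures the membrane of dying cells (0.76 ± 0.15). List medians ran from 0.06 to 0.44 where more than 1 gene was tested.

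In APOE3S/S the genes of these lists that tau raised included Il1f9 (2.89 ± 0.64), Gbp5 (1.83 ± 0.47), Nod2 (1.21 ± 0.21) and Irak3 (1.01 ± 0.25). Without untreated library 1 only Nod2 of these 4 was called, and the others had adjusted p of 0.112 to 0.124. Without tau library 4 or 6 the same 3 also missed it, Gbp5 and Irak3 without untreated library 3 or tau library 2, and Gbp5 without untreated library 4 or tau library 3. Il1f9 had 1 to 2 counts in each second-series library of APOE3S/S, untreated or with tau, so that its change rests on the SAN series. Nod2 passed within the second series too (1.16 ± 0.22, adjusted p = 0.0419, in the fit with a term for each group within each series). Tau against amyloid in APOE3 gave higher levels of Il1f9 (3.15 ± 0.64), Mlkl (1.17 ± 0.32), Irak3 (1.14 ± 0.27), Ninj1 (1.12 ± 0.15), Nod2 (1.04 ± 0.23), Myd88 and Panx1, and a lower level of Naip5 (-0.35 ± 0.10, adjusted p = 0.0452). Of these, Mlkl, Myd88 and Naip5 were not called when any 1 of the 6 libraries was left out (lowest adjusted p of 0.0597, 0.0501 and 0.0704). Ninj1 was called each time, and Il1f9, Irak3, Nod2 and Panx1 missed the threshold without 4 or 5 of the 6, amyloid library 1, amyloid library 3 and tau library 6 among them for each. No list gene was called in either amyloid comparison with untreated cells or between genotypes. The tau effect differed between series in APOE3 for Il1r1 (1.90 ± 0.51), Irak3 (1.26 ± 0.27), Nod2 (1.14 ± 0.27) and Il1rl2 (0.87 ± 0.17), among others. The Il1r1 difference did not pass without any 1 of untreated libraries 1, 3, 5 and 6 or tau libraries 1, 2, 4 and 6 (adjusted p of 0.0531 to 0.0855), nor that of Nod2 without tau library 2 or 5.

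Levels of the members followed each other across the 28 libraries to unequal degrees, given here as a description over libraries that share treatments and title series. On log2 CPM, Il1a and Il1b had a Pearson r of 0.96, Casp4 and Gsdmd 0.93, and Pycard had its highest value, 0.54, with Gsdmd. Among 9747 genes averaging 5 CPM or more, the pattern most like that of Il1b was that of Ptges (r = 0.97), the inducible prostaglandin E synthase, and the one most like Il1a was Tnip1 (0.97). Nlrp3 was most like Nod2 (0.95), Casp1 most like Vamp8 (0.96), Casp4 most like Ifi205 (0.98), Gsdmd most like Tapbp (0.99) and Pycard most like Bag1 (0.88). Il1rn was most like Mcoln2 (0.96). Clec4n, the 3rd in likeness to Il1rn (0.94), is also on the border macrophage and monocyte marker list.

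That list moved with tau beside these genes: its 12 markers summed to 2523 to 2868 CPM in SAN tau libraries of APOE3 against 1690 to 2029 CPM untreated, and to 3612 to 3786 CPM against 2793 to 3199 CPM in the second series. In APOE3S/S the sums were 2656 to 2852 CPM with tau against 2020 to 2035 CPM untreated in the SAN series, and overlapped in the second (3397 to 3838 against 3071 to 4193 CPM). With amyloid the sums were 2288 to 2486 CPM in APOE3S/S and 2020 to 2141 CPM in APOE3. Pf4, Mrc1 and Clec4n made up most of these sums, Cd209f was at 0 in all libraries and Lyve1 at 0 in 22. Neutrophil markers summed to 297 to 331 CPM with tau against 206 to 265 CPM in the SAN series of APOE3, with S100a9, Mpo and Retnlg at 0 throughout. Astrocyte markers summed to 72.6 to 87.0 CPM against 45.2 to 61.5 CPM there. That sum came mostly from Aldh1l1 and Aldoc, with medians of 37.2 and 24.2 CPM over all 28 libraries, while Gfap and Aqp4 had medians of 2.26 and 1.41 CPM. Whether cells of these types were behind the sums was not tested, nor was their part in the members' changes.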

How the data were processed

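RNA of cultured primary mouse microglia was extracted on columns and made into QuantSeq 3′ forward libraries, per the labels' protocols. The authors deposited 2 tables of unnormalised read counts per gene (22 libraries untreated or with tau, 11 untreated or with amyloid, 5 in both and identical there), per the labels. Per the submitters' processing notes they used DESeq2 1.38.3 and the build GRCm38 (mm10). The sources used here do not give the aligner or the counting program. Of 60976 entries, 6360 held no number and 189 repeated a symbol and were left out. Positions come from GENCODE and promoter sequences from RefSeq (GRCm38.p6).

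Counts were filtered by filterByExpr and scaled by TMM, then entered the quasi-likelihood test of edgeR 4.0.16 (glmQLFit and glmQLFTest, two-sided). P-values were adjusted by Benjamini-Hochberg over every gene tested, and 0.05 was the threshold of a call. Tau and genotype contrasts used the 22 libraries with a title-series term, amyloid contrasts the 11 SAN libraries untreated or with amyloid, and tau against amyloid all 17 SAN libraries. The script was tested on simulated data. CPM are counts per 1000000 counts of the library. Depth of 14.5 to 27.2 M counts limits precision only for the lowest genes, and errors cover these libraries only. Results were recomputed with DESeq2 1.42.0, with RLE scaling, without the low-count filter, in each title series alone, without the title-series term, with the compared groups alone, with all 17 SAN libraries for amyloid, with a replicate block, and without each library. The 9 members and all lists were chosen with earlier results of these data known. Members are named singly where at least 2 were called, and otherwise mostly where an unadjusted p was under 0.05 or an alternative made a call. Calls without the low-count filter between untreated genotypes and for the difference of the amyloid effect are given as counts only. From each pathway list up to 4 called genes with the smallest p are named, and from the 3 genes most like each member those given. Naip2 and P2rx7 are named for calls that a left-out library could undo. Lists of 8 to 12 markers for other cell types were summed per library. Sums for oligodendrocytes were 111 to 191 CPM, for neurons 0.887 to 4.44 CPM and for fibroblasts and endothelium 7.87 to 53.0 CPM. Results for some further genes of these lists are not reported here.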

Additional observations from a re-analysis of the deposited data

Results flagged for a closer look

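For each of the 9 members the 4 groups of 4 or 6 libraries, 36 sets in all, were checked for 1 library far from the rest, and 0 were found. Both title series of a group were pooled, so a gap between series widens the range and can hide such a library. The rate of about 1 in 20 by chance therefore need not hold, and 0 marks do not show that no library stood apart. APOE3S/S untreated library 2 was not marked for Casp4, at 46.5 CPM against 18.0, 9.80 and 16.9 CPM in the others. The amyloid groups of 3 libraries, with the high library 3 of APOE3S/S, are too small for that check. Of 36 differences between effects of single members, 5 passed a test of the difference itself. The tau effect in APOE3 was larger in the SAN than in the second title series for Il1a by 1.79, for Il1b by 2.17, for Il1rn by 1.69 and for Nlrp3 by 0.84 on the log2 scale. In APOE3S/S it was larger for Il1rn by 1.94. Of all genes tested, 2.93% passed upward in APOE3 and 0.539% in APOE3S/S. The calls of Il1b and Nlrp3 in APOE3 and of Il1rn in APOE3S/S were lost without certain single libraries, as given above. Title series and anything else that differed between those libraries cannot be told apart.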

How the results depend on the processing

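Counts below are members called, of 9. RLE scaling changed none of the 13 counts. Without the low-count filter, counts rose to 5 for amyloid in APOE3 (2.95% of all genes upward), 5 for amyloid in APOE3S/S (1.78%), 6 between genotypes with amyloid (1.82%), 1 between untreated genotypes (0.892%), 2 for the difference of the amyloid effect between genotypes (0.105%), 4 for tau against amyloid in APOE3S/S (0.852%), and 7 (APOE3, 2.90%) and 3 (APOE3S/S, 1.11%) for the difference between title series; the cause was not tested. Tau calls fell to 2 in each genotype in the second title series alone, and to 0 in APOE3S/S without a title-series term. The second series alone gave 1 between genotypes with tau. With the compared groups alone, amyloid in APOE3 gave 2 and the genotype comparison with amyloid 3, with the shares of all genes given above. DESeq2 gave 1 for tau against amyloid in APOE3S/S and 2 for the series difference in APOE3S/S. Libraries of the 2 genotypes with the same title number had deviations correlated at -0.118 to 0.174 and were not taken as paired. With the replicate block the genotype comparison with amyloid gave 2 calls (Casp1 and Casp4), and 0 untreated and with tau. Where no share or number of all genes is given for a fit, its count of members is not set against all genes. Leaving out 1 library gave 7 to 8 for tau in APOE3, 1 to 4 for tau in APOE3S/S, 0 to 4 for amyloid in APOE3S/S, 2 to 5 for tau against amyloid in APOE3, 0 to 4 for it in APOE3S/S, and 2 to 4 and 0 to 4 for the series differences. The number of all genes called, in either direction, moved with the library left out as well. It was 1548 to 2314 for tau in APOE3, 34 to 836 for tau in APOE3S/S and 58 to 572 for tau against amyloid in APOE3. Direction turned for Pycard with tau in APOE3S/S (0.28 in the SAN series alone, -0.20 to 0.15 over the left-out libraries), Casp1 there (-0.027 in the second series alone), Il1rn between genotypes with tau (0.12 in the SAN series alone), and the series difference of Il18 in APOE3 (-0.078 to 0.35 over the left-out libraries) and of Gsdmd in APOE3S/S (-0.078 to 0.94).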
